A study of Canis lupus familiaris with 34 samples.

Results

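BMPER (BMP binding endothelial regulator) is a secreted protein that binds bone morphogenetic proteins (BMPs) outside the cell and can hold back or help their signal. The mitral valve leaflet is built by valve interstitial cells, fibroblast-like cells that lay down collagen, proteoglycans and elastic fibres, under a covering of endothelium. In myxomatous mitral valve disease (MMVD) the leaflet thickens, its interstitial cells take on contractile features and its matrix is remodelled, and BMP and TGF-beta signals are among those followed in this disease.

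The data were gene counts from RNA sequencing of mitral valves of 34 Cavalier King Charles Spaniels, a breed in which MMVD is common. Of these dogs, 19 were about 10 years old without congestive heart failure (10y-noCHF) and 15 were of that age with MMVD and congestive heart failure (10y-MMVD-CHF). They were privately owned dogs euthanised electively, and by the study's methods nearly all of the 10y-noCHF dogs had MMVD at a stage before failure, while the labels used here do not give the stage, weight or exact age of each dog. Each dog gave 1 valve, so dogs were the replicates. The question was which genes vary with BMPER among valves without failure.

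The dogs were selected on their measured BMPER level, as BMPER CPM, its counts scaled to a total of 1000000 counts a dog. The 6 lowest of the 19 10y-noCHF dogs formed BMPER-low and the 6 highest formed BMPER-high, which left 7 dogs between them, so 12 of 34 dogs carried the main comparison. BMPER-low held CAV1041 at 1.74 CPM, CAV865 at 4.35, CAV1114 at 5.86, CAV494 at 5.95, CAV1049 at 6.17 and CAV579 at 6.68. BMPER-high held CAV285 at 13.1 CPM, CAV444 at 13.4, CAV901 at 14.6, CAV748 at 16.5, CAV488 at 20.1 and CAV749 at 22.5. The nearest dogs outside the groups were CAV1731 at 8.74 CPM and CAV1939 at 11.8. The means were 5.12 ± 1.83 CPM (SD, n = 6) and 16.7 ± 3.85 CPM (SD, n = 6), a gap that the choice of dogs made and that was not tested. The 7 dogs between filled the range from 8.74 to 11.8 CPM. The 15 10y-MMVD-CHF valves had 1.46 to 5.65 CPM, with a median of 4.27, so every valve with failure lay below the highest BMPER-low dog.

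**Figure D1:**
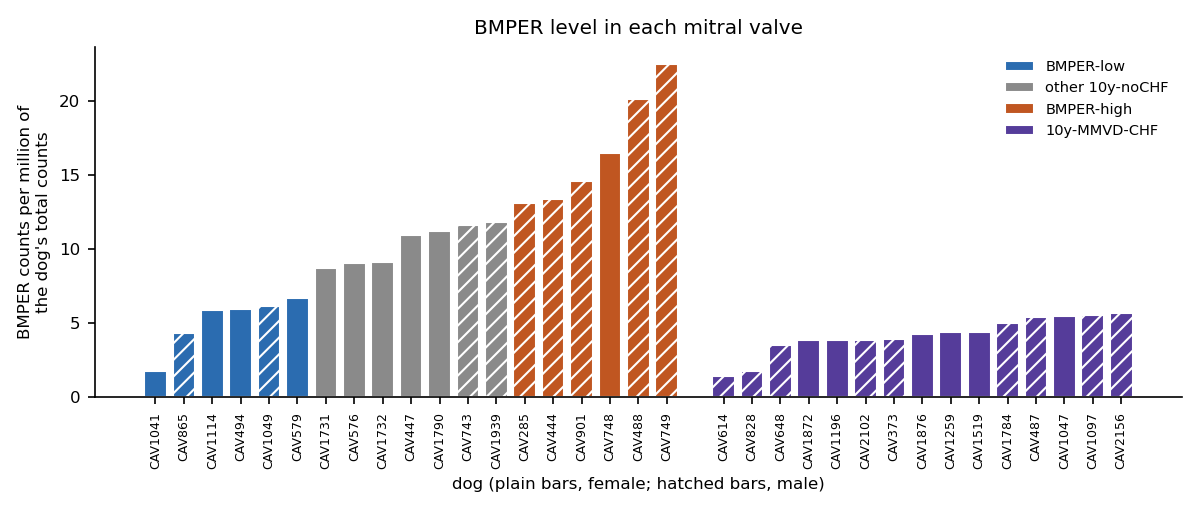
BMPER CPM (y axis) in 19 10y-noCHF and 15 10y-MMVD-CHF valves (1 bar a dog, sorted within each group, hatched bars male). The 6 BMPER-low dogs run from 1.74 to 6.68 CPM, the 6 BMPER-high dogs from 13.1 to 22.5 CPM, and the 10y-MMVD-CHF dogs from 1.46 to 5.65 CPM.

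BMPER was counted over chr14:46005756-46252474 on the plus strand (canFam4), as a human RefSeq alignment taken whole, introns included, and no other feature overlapped it. The value therefore counts reads from unspliced as well as spliced RNA. It rested on 92 to 432 counts a dog in BMPER-low and 762 to 1748 in BMPER-high, all of them even numbers.

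The groups differed in more than BMPER. BMPER-low held 4 females and 2 males, BMPER-high 1 female (CAV748) and 5 males. Over the 19 dogs the median BMPER level was 8.89 CPM in the 10 females and 13.1 CPM in the 9 males. Total counts ran from 48784642 to 64703410 in BMPER-low and from 54526189 to 80659044 in BMPER-high (difference of means, two-sided exact permutation test, p = 0.0693). Cardiomyocyte marker counts made up 0.0489 to 4.98% of all counts in BMPER-low and 0.0388 to 4.31% in BMPER-high, so myocardium came along in some samples of both. The labels describe the tissue as mitral valve, and in every dog endothelium markers summed to at least 659 CPM and interstitial cell and fibroblast markers to at least 13296 CPM.

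The share of reads from outside exons also differed. For 699 genes present both as canine exons and as a whole span, the median log2 ratio of span to exon counts was 0.341, 0.421 and 0.502 (lowest, median, highest) in BMPER-low and 0.459, 0.495 and 0.584 in BMPER-high. The ranges overlapped, but 4 of 6 BMPER-low dogs lay below every BMPER-high dog. Over the 19 dogs its Spearman correlation with BMPER was 0.42, and over the 15 10y-MMVD-CHF dogs -0.13, both as descriptions with 1 library a dog. Below, this measure is called the span-to-exon ratio, and fits with it as a covariate, chosen after seeing the data, are given beside the results. Fits with the cardiomyocyte level as a covariate are given where they move a value, and the part of depth in the differences was not tested.

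**Figure D2:**
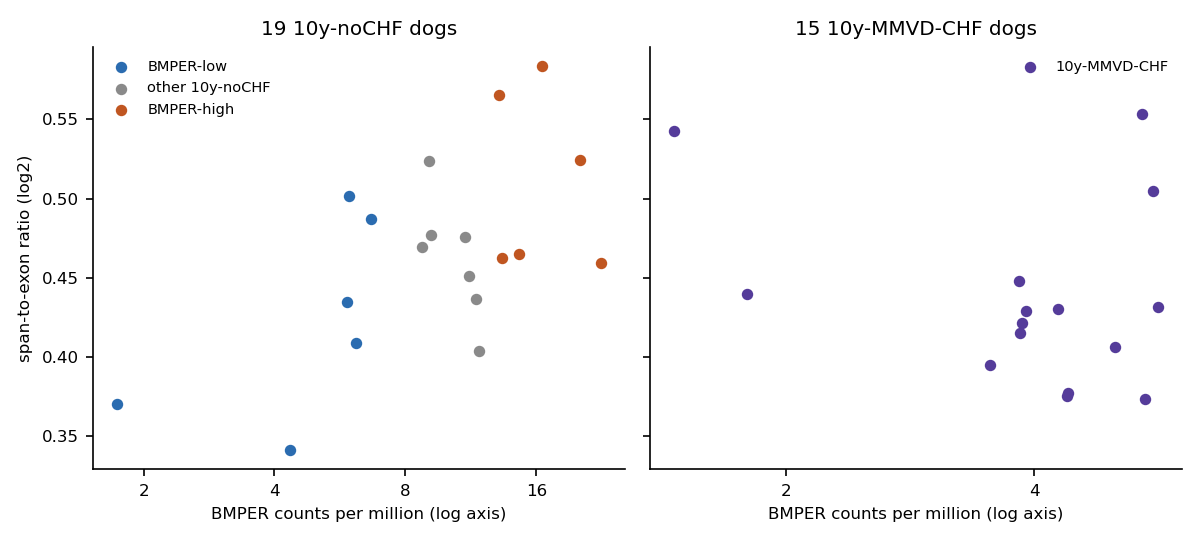
Span-to-exon ratio (y axis, log2) against BMPER CPM (x axis, log scale), 1 point a dog, in 10y-noCHF (left) and 10y-MMVD-CHF valves (right). BMPER-low dogs lie between 0.341 and 0.502 and BMPER-high dogs between 0.459 and 0.584.

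No gene passed the threshold between BMPER-low and BMPER-high valves. With edgeR's quasi-likelihood test, sex in the model and a false discovery rate (FDR) of 0.1, 0 of 19567 features were called (0%), BMPER itself being left out. The smallest adjusted p was 0.102. Without adjustment 2288 features had a p below 0.05, 1387 lower in BMPER-low (7.09% of those tested) and 901 higher (4.6%). limma voom called 0 features and DESeq2 578, 305 lower (1.56% of those tested) and 273 higher (1.4%), so the number of calls depended on the tool. Fold changes below are log2 differences, BMPER-low minus BMPER-high, ± standard error, and gene levels are CPM scaled by TMM (trimmed mean of M values) and given as lowest, median and highest dog. All 6 BMPER-low dogs lay below all 6 BMPER-high dogs in 46 features (0.235% of those tested) and above them in 28 (0.143%).

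The gene nearest to the threshold was TRAPPC3L, a relative of a subunit of the TRAPP vesicle tethering complex. Its level was 35.4, 39.2 and 55.4 CPM in BMPER-low and 21.2, 31.7 and 34.1 CPM in BMPER-high, without overlap, with the 10y-MMVD-CHF dogs at a median of 39.4 CPM. The difference was 0.70 ± 0.09 (FDR 0.102). ITSN1, which encodes an endocytic scaffold protein, did not overlap either, at 117, 131 and 138 against 82.7, 95.7 and 108 CPM (0.47 ± 0.09, FDR 0.199). SMOC2, a secreted matricellular protein, was at 158, 215 and 290 against 89.2, 134 and 171 CPM, with 5 BMPER-low dogs above all BMPER-high dogs (0.99 ± 0.17, FDR 0.199). For SCUBE3, a secreted protein with EGF-like repeats, the difference was 1.15, for CH25H (cholesterol 25-hydroxylase) 1.11 and for the adaptor SKAP2 0.76, with FDR from 0.199 to 0.234. CLEC4G, a C-type lectin of sinusoidal endothelium, stood at 2.67, 7.35 and 12.5 against 0.98, 1.36 and 2.96 CPM (2.53 ± 0.42, FDR 0.199), and its pseudogene CLEC4GP1 covers the same reads.

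Among features lower in BMPER-low, the smallest p belonged to TRIM65, a ubiquitin ligase, at 6.04, 8.13 and 9.04 CPM in BMPER-low and 9.57, 11 and 14.6 CPM in BMPER-high. Its ranges were separate and the difference was -0.74 ± 0.12 (FDR 0.199). WRAP73, a centrosomal WD repeat protein, was also separate, at 9.49, 11.2 and 12.5 against 12.7, 15.5 and 16.8 CPM (-0.58 ± 0.11). MINAR2 was low in all valves, at 0.196, 0.432 and 0.818 against 0.906, 1.15 and 2.02 CPM (-1.98 ± 0.35), and it lay beside ADAMTS19 on chromosome 11. ADCY4, an adenylyl cyclase of endothelium, was at 26.6, 35.9 and 51.3 against 45.4, 62 and 89.3 CPM, with 5 BMPER-low dogs below all BMPER-high dogs (-0.98 ± 0.16). The differences of DOCK6, MAN2C1, BDH1 and ATP9B lay between -0.81 and -0.54. These 8 genes all had an FDR of 0.199.

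**Figure D3:**
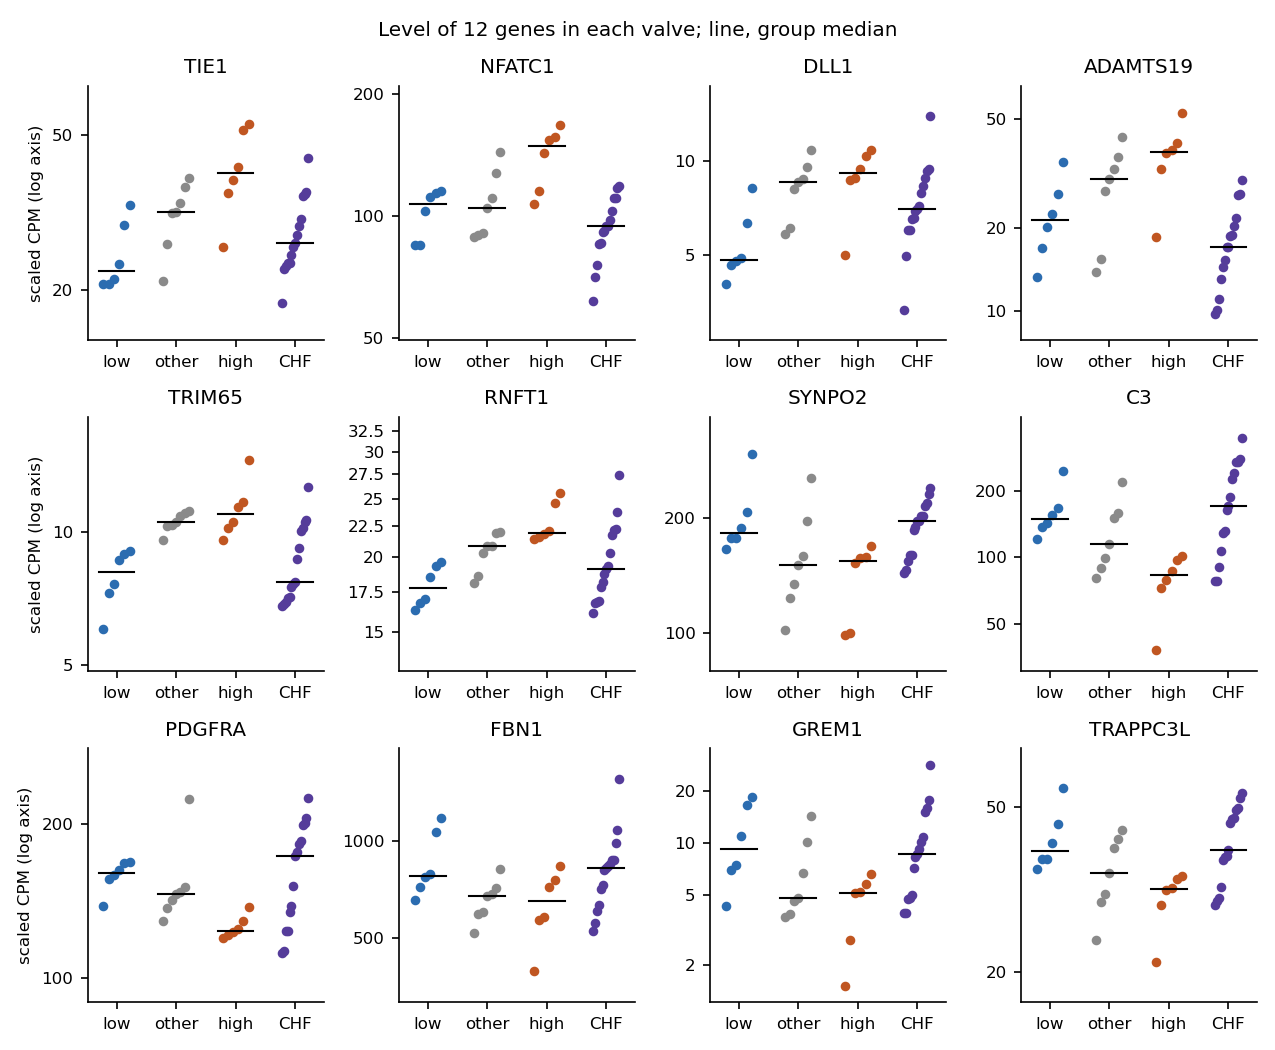
TMM-scaled CPM (y axes, log scale) of 12 genes in each valve, 1 point a dog and a line at the group median, for BMPER-low (6 dogs), the other 10y-noCHF dogs (7), BMPER-high (6) and 10y-MMVD-CHF (15). For TRIM65, RNFT1, C3, PDGFRA and TRAPPC3L the BMPER-low and BMPER-high dogs do not overlap, and for the other 7 they do.

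The BMP pathway was read from 4 lists. Of 9 BMP ligands tested, 0 were called, and the list's median was 0.31 against -0.01 over all features, or 0.11 with no sex term. BMP6, made in endothelium among other cells, was at 55.5, 128 and 166 CPM in BMPER-low and 58.6, 98.9 and 130 in BMPER-high (0.62 ± 0.28, FDR 0.423). BMP2 had a difference of 0.31 and BMP4 of 0.12. The 11 BMP receptors had a median of -0.01, and the member of smallest p was ACVR2A at -0.27, which became 0.03 with the span-to-exon ratio as a covariate. Among 17 signal and target genes the median was 0.09 and none reached an unadjusted p of 0.05. The target ID1 stood at -0.19, ID3 at 0.03, the inhibitory SMAD6 at -0.44 and SMAD7 at -0.34.

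Of 21 other BMP antagonists and modulators, 17 had positive differences, with a median of 0.30, and 0 were called. The median was 0.14 with the span-to-exon ratio and 0.12 with no sex term. GREM1 (gremlin 1, a secreted BMP antagonist; chr30:2496291-2508380) was at 4.33, 9.27 and 18.3 CPM in BMPER-low and 1.52, 5.19 and 6.6 CPM in BMPER-high. In 5 of 6 BMPER-low dogs it lay above every BMPER-high dog, and the difference was 1.80 ± 0.43 (FDR 0.252). Its level in 10y-MMVD-CHF valves, 3.95, 8.68 and 28.1 CPM, overlapped both groups, with a median above every BMPER-high dog. The endocytic receptor LRP1 had a difference of 0.65 ± 0.19 and the antagonist CHRDL1 one of 0.58 ± 0.26. Noggin (NOG) and chordin (CHRD), the best known BMP antagonists, had differences of -0.40 and 0.14 with standard errors of 0.50 and 0.25.

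Most contractile genes had positive differences. Of 15 smooth muscle and myofibroblast genes, 14 had positive differences and 10 of these an unadjusted p below 0.05, with a median of 0.72 against -0.01 over all features. None was called by edgeR and 6 were by DESeq2, all higher in BMPER-low. Over all features tested, 4.6% were higher at that unadjusted p and 1.4% were called higher by DESeq2. SYNPO2 (synaptopodin 2, an actin-binding protein) was at 166, 183 and 295 CPM in BMPER-low and 99, 155 and 169 CPM in BMPER-high (0.75 ± 0.17, FDR 0.252). The smooth muscle myosin heavy chain MYH11 was at 141, 227 and 430 against 62.7, 113 and 247 CPM (1.29 ± 0.35, FDR 0.256). The actin ACTA2, a marker of activated interstitial cells, was at 180, 255 and 456 against 103, 133 and 315 CPM (0.99 ± 0.36, FDR 0.31). All 3 overlapped between groups. Tropomyosin TPM2 had a difference of 0.73 and calponin CNN1 of 1.08. The summed level of the list was 4347 to 7533 CPM in BMPER-low, 3193 to 5162 in BMPER-high and 3087 to 8522 in 10y-MMVD-CHF valves. The median was 0.42 with no sex term, 0.61 with the span-to-exon ratio and 0.65 with the cardiomyocyte level as a covariate. Over all 19 10y-noCHF dogs 0 of the 15 genes were called by edgeR. There 4 fell with BMPER at an unadjusted p below 0.05, against 5.55% of all features tested. Their median log2 change per doubling of BMPER was -0.29, or -0.15 with the span-to-exon ratio. In bulk valves, more cells of a type and more RNA per cell cannot be told apart.

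Most matrix genes had positive differences too, and their medians shrank with the span-to-exon ratio in the model. The median of 29 collagens was 0.41 and became 0.01, that of 28 proteoglycan and hyaluronan genes was 0.32 and became 0.02, and that of 31 elastic fibre and matricellular genes was 0.33 and became 0.12. With no sex term these medians were 0.18, 0.16 and 0.14. Fibrillin FBN1, the main scaffold of elastic fibres (chr30:14923382-15148299), was at 655, 780 and 1180 CPM in BMPER-low and 394, 649 and 835 CPM in BMPER-high (0.67 ± 0.21, and 0.20 with the covariate). Versican (VCAN), the large proteoglycan of myxoid matrix, had a difference of 0.75 ± 0.33, which became 0.01. The basement membrane collagen COL4A1 went from 0.72 to 0.06. COL4A5, another basement membrane chain, had the opposite sign at -0.42 ± 0.13 (FDR 0.26). The connective tissue growth factor CCN2 had a difference of 0.68 and 0.83 with the covariate. EFEMP1 stood at 0.39, and the collagen-binding integrin ITGA1 at 0.67 ± 0.15 (FDR 0.249).

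Of 15 endothelium markers 0 were called by edgeR and 3, all lower in BMPER-low, by DESeq2. In edgeR 4 had an unadjusted p below 0.05, all with negative differences. Over all features tested, 7.09% were lower at that p and 1.56% were called lower by DESeq2. The list's median was -0.11, or -0.22 with no sex term and -0.23 with the span-to-exon ratio. TIE1, an orphan receptor of the angiopoietin system (chr15:16941226-16959721), was at 20.8, 22.4 and 33 CPM in BMPER-low and 25.7, 39.8 and 53.3 CPM in BMPER-high (-0.92 ± 0.19, FDR 0.241). EGFL7, a secreted endothelial factor, was at 23.2, 32.4 and 52.5 against 35.7, 46 and 64.4 CPM (-0.74 ± 0.17). The nitric oxide synthase NOS3 had a difference of -0.84 and the junction protein PECAM1 of -0.54. Von Willebrand factor (VWF), the clotting glycoprotein stored in endothelium, had the opposite sign, at 54.4, 132 and 220 against 19.5, 48.9 and 117 CPM, with 4 BMPER-low dogs above all BMPER-high dogs (0.87 ± 0.50, FDR 0.537). That difference rested on single dogs, at 0.12 without CAV865 and 1.40 without CAV748, and was 1.42 with the span-to-exon ratio. Its canine exon feature had a difference of 1.07 ± 0.49. The junction cadherin CDH5 had one of -0.10 ± 0.26. The summed level of the list overlapped, at 659 to 1290 CPM in BMPER-low and 735 to 1405 in BMPER-high.

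Among 12 lymphatic and shear-related genes, 4 had negative and 2 positive differences at an unadjusted p below 0.05, against 7.09% and 4.6% of all features tested. The median was -0.18 and turned to 0.02 with the span-to-exon ratio. NFATC1, a transcription factor needed for valve formation and active in valve endothelium, was at 84.5, 107 and 115 CPM in BMPER-low and 107, 148 and 167 CPM in BMPER-high (-0.53 ± 0.15, FDR 0.256). CCM2L, a partner of the endothelial CCM complex, had a difference of -1.11, which became -0.46 with the span-to-exon ratio, and GATA2 one of -0.72. The shear-induced KLF2 stood at -0.18 ± 0.20. In the Notch list DLL1, a ligand, was at 4.06, 4.84 and 8.24 against 5.01, 9.16 and 10.9 CPM (-0.92 ± 0.24), while the receptor NOTCH3 and the target HEYL had differences of 0.72 and 0.62.

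Among immune genes, all 14 macrophage markers had positive differences, 6 of them at an unadjusted p below 0.05 and 0 called, with a median of 0.49. That median was 0.32 with the span-to-exon ratio and 0.29 with no sex term. For 17 antigen presentation genes the median was 0.69, with 16 positive, 6 at an unadjusted p below 0.05, 0 called by edgeR and 4 by DESeq2. This median was 0.45 with the span-to-exon ratio, and several of these features cover the same class II genes under canine and human names. Over all features tested, 4.6% were higher at that unadjusted p and 1.4% were called higher by DESeq2. The complement component C3 was at 121, 149 and 245 CPM in BMPER-low and 38, 82.7 and 101 CPM in BMPER-high, without overlap (0.91 ± 0.26, FDR 0.259). C1QC, a complement subunit made by macrophages, had a difference of 0.76 and HLA-DRA of 0.81. Summed macrophage markers ran from 823 to 1840 CPM in BMPER-low and 732 to 1740 in BMPER-high, so the ranges overlapped widely. In the dogs between the groups they reached 2155 CPM. Over all 19 10y-noCHF dogs, 0 macrophage and 0 antigen presentation genes changed with BMPER at an unadjusted p below 0.05. Their median log2 changes per doubling of BMPER were -0.14 and -0.16, or 0.02 and 0.01 with the span-to-exon ratio. Other immune lists were mixed, with 4 of 7 mast cell, 4 of 13 lymphocyte and 9 of 28 cytokine, chemokine and complement genes negative. PDGFRA, a marker of fibroblasts and interstitial cells, was at 138, 160 and 168 against 119, 124 and 138 CPM, and the lowest BMPER-low dog lay just above the highest BMPER-high dog (0.35 ± 0.08, FDR 0.252).

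In the remaining lists of the comparison 0 members were called by edgeR. Of 18 TGF-beta genes 16 had positive differences, 1 at an unadjusted p below 0.05, with a median of 0.18 that was 0.04 with the span-to-exon ratio and 0.07 with no sex term. The 19 cell cycle genes had a median of -0.04 with 0 of them at an unadjusted p below 0.05. The 34 WNT genes had a median of -0.08, the 24 valve transcription factors 0.01 and the 19 immediate-early genes 0.05. Red blood cell genes had a median of 1.81 and adipocyte genes of -1.07, both from low and uneven levels. Hemoglobin made up 0.151% of all counts in CAV1049 of BMPER-low and at most 0.0232% in the other 11 dogs. The retinoic acid enzyme ALDH1A2 was at 0.628, 1.75 and 2.9 CPM in BMPER-low and 2.24, 3.54 and 4.93 in BMPER-high (-1.42 ± 0.39, FDR 0.256). WNT5B, a noncanonical ligand, did not overlap, at 5.39, 6.66 and 9.23 against 3.82, 4.17 and 5.31 CPM (0.63 ± 0.19).

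**Figure D4:**
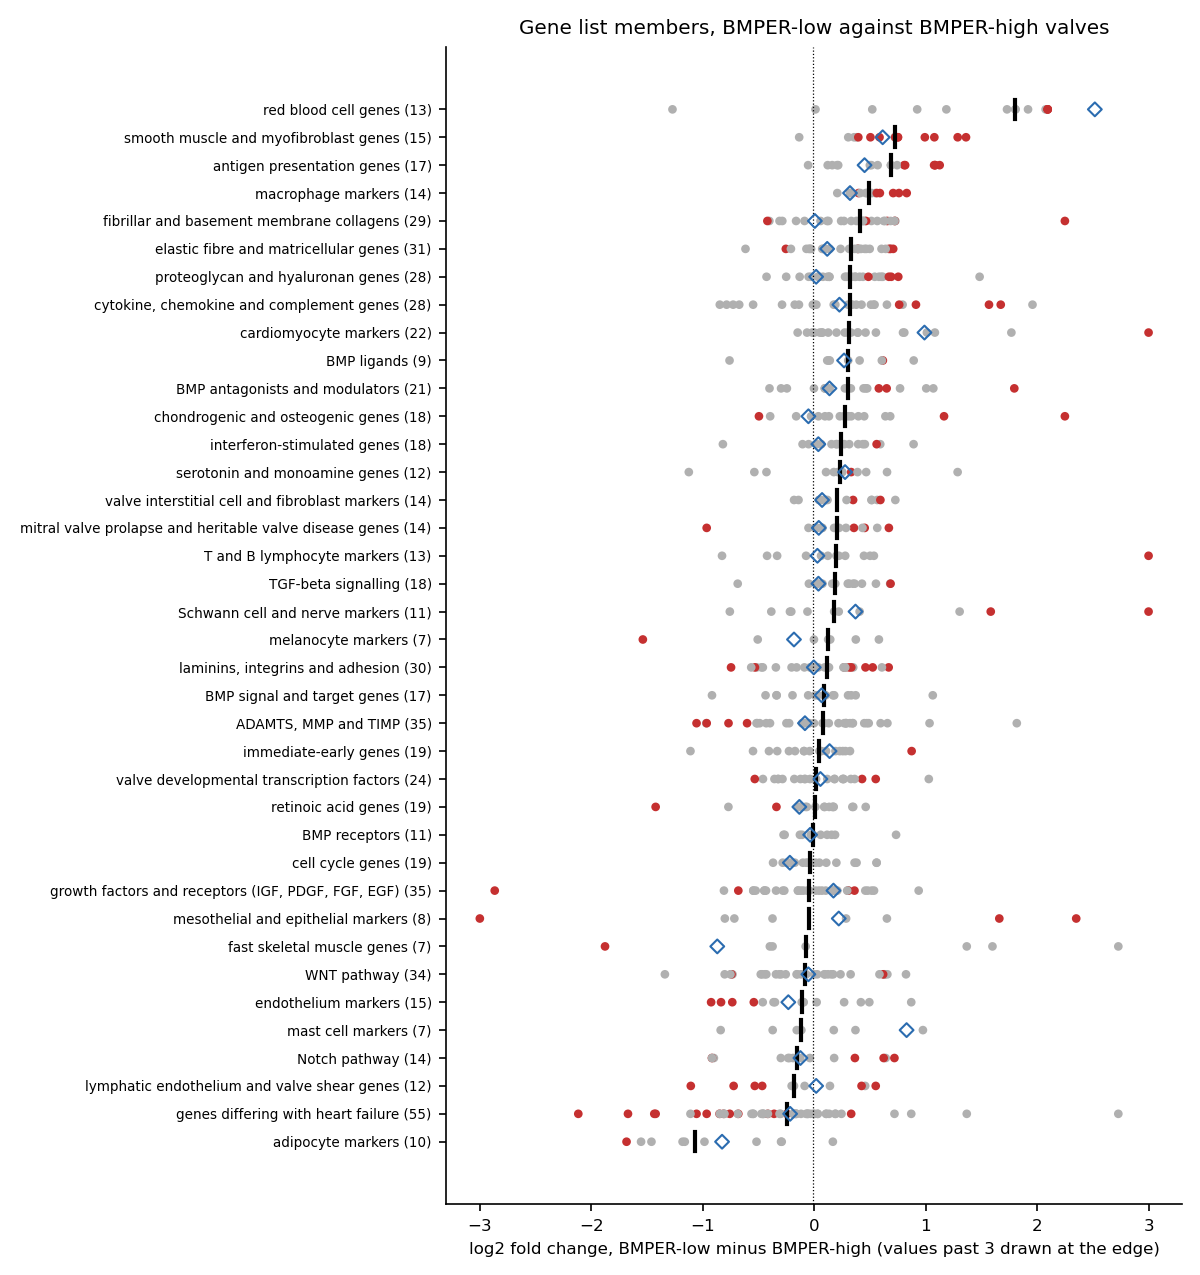
Log2 fold change, BMPER-low minus BMPER-high, of each member of 38 gene lists (x axis; 1 point a gene, red where the unadjusted p is below 0.05), with the list median (black bar) and the median with the span-to-exon ratio as a covariate (blue diamond). The number of members tested stands in brackets, and the dotted line is the median of all features, -0.01. The collagen median moves from 0.41 to 0.01 and the smooth muscle median from 0.72 to 0.61.

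A further list holds genes that the study picked for heart failure with these dogs as its controls, so it is not independent evidence of a direction. Of its 55 tested members, 41 had negative and 14 positive differences between BMPER-low and BMPER-high, with a median of -0.25. At an unadjusted p below 0.05 were 13 and 1, against 7.09% and 4.6% of all features tested. ADAMTS19, a matrix protease mutated in heritable valve disease (chr11:18199044-18428115), was at 13.3, 21.3 and 34.7 CPM in BMPER-low and 18.6, 37.9 and 52.6 CPM in BMPER-high (-0.96 ± 0.29). PTPRD, a receptor tyrosine phosphatase, was at 12.8, 16 and 20.9 against 18.1, 27.1 and 44.5 CPM (-0.85 ± 0.26). TPPP3, a tubulin-binding protein, stood at -0.76, FOSB, an immediate-early transcription factor, at -1.11 ± 0.58 and the monoamine oxidase MAOA at 0.33. Over canine exons the MAOA difference was 0.53 ± 0.14 (FDR 0.252). The cytokine TNFSF4 stood at -0.42 ± 0.41, or -0.08 without CAV1049 and -0.81 without CAV748, AKNAD1 at -0.54 ± 0.40 and NPTX1, a neuronal pentraxin, at 0.03 ± 0.75.

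BMPER was next taken as a number over all 19 10y-noCHF dogs, which uses the 7 middle dogs too and is not independent of the comparison above. Slopes are log2 changes per doubling of BMPER CPM. Here 200 features passed an FDR of 0.1, 133 rising with BMPER (0.68% of those tested) and 67 falling (0.342%). The median slope was 0.26 among those that rose and -0.23 among those that fell. The smallest adjusted p was 0.056, and 0 features passed at 0.05. The count moved with single dogs and with the model. It was 1 without CAV1041 and 0 without CAV865, which are the lowest dogs, and 0 without CAV748, the female of BMPER-high. It was 0 with no sex term, and 0 in the 10 females and 0 in the 9 males alone. limma voom gave 81 and DESeq2 857. With the span-to-exon ratio as a covariate 0 were called, and 73 of the 200 had an unadjusted p below 0.05. All 200 slopes kept their sign in each sex and with that covariate. The 200 were chosen by their slope over these same dogs, so the kept signs are not separate evidence. Of the 133 features that rose 0 were canine exon features, against 20 of the 67 that fell and 7.33% of all features tested, so every rising feature was, like BMPER, a human alignment.

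Few members of the matrix lists were called as falling with BMPER (0.342% over all features tested). They were 0 of 29 collagens, 2 of 28 proteoglycan and hyaluronan genes and 1 of 31 elastic fibre and matricellular genes. Called or not, 24, 24 and 27 members had negative slopes, and 12, 9 and 8 of these an unadjusted p below 0.05. The list medians were -0.19, -0.17 and -0.16, or -0.09, -0.06 and -0.07 with the span-to-exon ratio as a covariate. Of 18 TGF-beta genes 0 were called, 15 had negative slopes and 7 of these an unadjusted p below 0.05, against 5.55% of all features tested. FBN1 fell by 0.32 ± 0.06 on the log2 scale per doubling of BMPER as a whole span and by 0.34 ± 0.07 over canine exons (FDR 0.056 for both). The cell-surface proteoglycans GPC4 (FDR 0.056) and CSPG4 (FDR 0.0585) fell by 0.21 and 0.37, and LRP1, whose reads cannot be told apart from those of its antisense partner LRP1-AS, by 0.31. SERPINH1, the collagen chaperone of the endoplasmic reticulum, which was named after its values were seen, fell by 0.27 over canine exons. In the low and high dogs its level was 285, 366 and 425 against 201, 289 and 378 CPM. Other chaperones of that compartment named after their values were seen were CANX at -0.23, CALR at -0.20, PDIA4 at -0.20 and HYOU1 at -0.30. For these 4 the slope with the span-to-exon ratio as a covariate was of like size, from -0.31 to -0.17, whereas that of CSPG4 went to -0.15 and that of LRP1 to -0.13.

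Of 15 endothelium markers 2 were called as rising with BMPER (0.68% over all features tested). The list's median slope was 0.09, or 0.03 with the span-to-exon ratio as a covariate. Without that covariate 10 members were positive and 5 negative. TIE1 rose by 0.37 ± 0.09 (FDR 0.0766) and EGFL7 by 0.33 ± 0.07 (FDR 0.0597). Outside that list, ADCY4 rose by 0.40 (FDR 0.056) and the Notch ligand DLL1 by 0.44 ± 0.10 (FDR 0.07). NPR1, the receptor of atrial natriuretic peptide, rose by 0.40 and PTPRD by 0.43 ± 0.11 (FDR 0.0974). MAOA fell by 0.23 ± 0.05 over canine exons (FDR 0.0731) and by 0.12 ± 0.06 as a whole span (FDR 0.387). Among genes named after their values were seen, the kinases CLK1 and CLK4 rose by 0.30 and 0.35, the splicing factor SRSF5 by 0.39 and the long noncoding RNA CHASERR by 0.38. CLK1 was at 72.4, 108 and 161 CPM in BMPER-low and 119, 140 and 176 CPM in BMPER-high. With the span-to-exon ratio as a covariate the slope of CLK1 was 0.11, of CLK4 0.11 and of SRSF5 0.12, against 0.26 for TIE1, 0.30 for EGFL7 and 0.35 for DLL1.

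As a description of likeness, the 5 genes with the highest Spearman correlation with BMPER over the 19 dogs, among genes with a mean of at least 1 CPM, included RNFT1 at 0.85, RNF149 at 0.81, and TAMM41 and EEF1E1 at 0.77. RNFT1 and RNF149 encode RING finger proteins. RNFT1 was at 16.3, 17.8 and 19.6 CPM in BMPER-low and 21.4, 22 and 25.6 CPM in BMPER-high, without overlap. At the other end stood complement C4, counted as C4A, C4B, C4B_2 and LOC110384692 over 1 span, at -0.78, and PDGFRA at -0.77. C4A was at 312, 337 and 401 against 155, 218 and 310 CPM, again without overlap (0.69 ± 0.18, FDR 0.252).

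The same slopes were then taken in the 15 10y-MMVD-CHF valves, none of which entered the slopes above. Of the 200 features, 56 (28%) had a slope of the same sign there, against 43.65% over all features tested. Among the 200, 1 had an unadjusted p below 0.05 in the same direction and 15 had one in the opposite direction. Over all 19567 features tested, 1543 had such a p within failure, 720 falling with BMPER and 823 rising. The difference between slopes was tested over all 34 dogs and 0 features were called (0%), with 2420 at an unadjusted p below 0.05 and 219 by DESeq2. For FBN1 the slope within failure was 0.24 ± 0.17, for TIE1 -0.17 ± 0.16 and for DLL1 -0.19 ± 0.23. CSPG4, which fell with BMPER without failure, had a slope of 0.49 ± 0.14 with failure (difference of slopes, FDR 0.189). PTPRD had slopes of the same sign, 0.43 without and 0.37 ± 0.18 with failure. The range of BMPER was narrower in the dogs with failure, from 1.46 to 5.65 CPM.

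**Figure D5:**
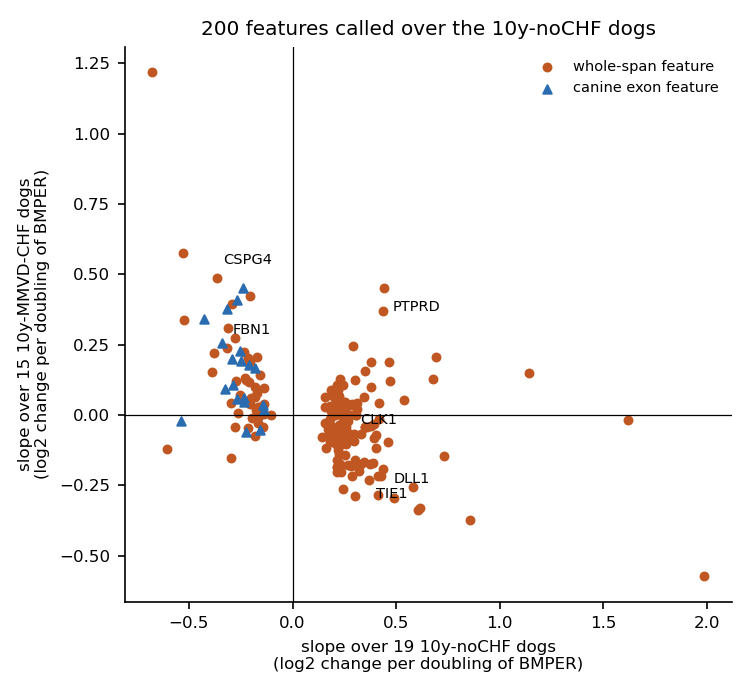
Slopes on BMPER (log2 change per doubling of BMPER CPM) of the 200 features called over 19 10y-noCHF dogs (x axis) and the same features in 15 10y-MMVD-CHF dogs (y axis), whole-span features as circles and canine exon features as triangles. Of the 200, 56 have the same sign in both groups of dogs.

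Within the 10y-MMVD-CHF dogs 12 features were called (0.0613%), 11 falling with BMPER and 1, the zinc finger gene ZKSCAN8, rising. The 11 were mostly genes known from red blood cells and neutrophils. They were ALAS2, the first enzyme of heme synthesis in red cells, the red cell factor GATA1, HBB, HBD and 3 more features over the same beta globin reads, the chemokine receptors CXCR1 and CXCR2, which share reads, the neutrophil protein S100A8, and CYP4F2, which shares reads with its relatives. ALAS2 fell by 1.74 ± 0.27 on the log2 scale per doubling (FDR 0.0903). Its level was 1.87, 2.35 and 37.6 CPM over the 15 dogs. Other called genes had medians near 0, with HBB at 0, 0.333 and 27 CPM and CXCR1 at 0, 0.0165 and 2.24 CPM. GATA1 was at 0, 0 and 0.536 CPM. CAV614, the dog with the least BMPER, had 0.673% of its counts in hemoglobin against at most 0.075% in the other 14 dogs, and 0 features were called without it. The count was also 0 when CAV1097, CAV1519, CAV1784, CAV2102, CAV2156, CAV373 or CAV648 alone was left out. Leaving out CAV614 moved the fit further than this. Without CAV614, 496 features had an unadjusted p below 0.05, against 1543 in all 15 dogs. With each of those other dogs left out, 1261 to 1709 features had one. The count called was 0 too with the span-to-exon ratio or the cardiomyocyte level as a covariate. The slope of ALAS2 over the 10y-noCHF dogs was -0.23.

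Last, the valves with failure were set against each BMPER group in 1 fit. These comparisons share the 10y-MMVD-CHF dogs, so their values are given side by side only. Against BMPER-high 32 features were called (0.164%), 26 lower and 6 higher with failure. Against BMPER-low 0 were called (0%), with 540 at an unadjusted p below 0.05 and 2 by DESeq2. For the 26 features the median difference was -0.90 from BMPER-high, which chose them, and -0.17 from BMPER-low. FOSB, an immediate-early gene, differed from BMPER-high by -2.03 ± 0.33 (FDR 0.0174) and from BMPER-low by -1.02. TPPP3 differed by -1.29 (FDR 0.0268) and -0.54, and COL4A5 by -0.61 (FDR 0.0174) and -0.17. NFATC1 differed by -0.62 ± 0.12 (FDR 0.041) and -0.08, with a median of 94.1 CPM in failure, 107 in BMPER-low and 148 in BMPER-high. MAOA was higher with failure by 0.52 ± 0.10 than BMPER-high (FDR 0.0345) and by 0.21 than BMPER-low. Its canine exon feature differed by 0.64 ± 0.12 (FDR 0.0407) and 0.21. Over the 55 genes of the heart failure list the median was -0.75 against BMPER-high, with 12 called, and -0.42 against BMPER-low. The study picked that list by comparing these same dogs with and without failure, so these values are not independent evidence. BMPER, by which the groups were chosen, was among the study's genes too. The count of 32 fell to 2 without CAV901 and was 10 without CAV488, and 17 with the span-to-exon ratio as a covariate.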

How the data were processed

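RNA from mitral valves of 34 dogs was sequenced as polyA libraries with paired reads of 150 bases. Per the labels and the study's methods the authors checked reads with FastQC, aligned them to canFam4 with STAR and counted them with featureCounts over canine RefSeq exons and canFam4-aligned human XenoRefSeq genes; versions are not given in the sources used here. The deposited values were raw counts per feature, and 1 count column of no sample was not used. Groups came from the labels and, within 10y-noCHF, from BMPER CPM over the column total.

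Features with at least 100 counts over the 34 dogs were kept and BMPER was left out of the tests. edgeR 4.0.16 in R 4.3.3 (TMM, quasi-likelihood F-test, sex as a fixed effect, Benjamini-Hochberg FDR of 0.1) was the main tool, with limma 3.58.1 and DESeq2 1.42.0 as alternatives. Standard errors were the log2 value over the root of F. Levels are TMM-scaled CPM. The scripts were tested on simulated data.

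Genes named were those called, otherwise the 8 of smallest p in each direction, the member of smallest p in each of 38 lists, genes from the study, the 5 with the highest and lowest Spearman correlation with BMPER, and the 5 of smallest p in each direction in 10y-MMVD-CHF. A few genes that these rules name are not reported here. Other genes were chosen after their values were seen. The groups and lists were chosen with earlier results of these data known. The fits with the span-to-exon ratio, all alternatives to the 19-dog slopes and the dogs left out of the comparisons with heart failure were chosen after seeing the data.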

Additional observations from a re-analysis of the deposited data

Results flagged for a closer look

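Among 162 groups of 6 values (the named genes and the measures of each dog, in BMPER-low and BMPER-high), 13 had 1 dog apart from the others, with a gap to its neighbour past Dixon's 95% critical value when divided by the group's range (log2 CPM for genes). Chance gives this in about 1 of 20 groups. CAV748, the female of BMPER-high, stood apart in 5 of them, as the highest dog for MINAR2 (0.639 of the range) and the lowest for TRAPPC3L (0.668), CH25H (0.667), CCN2 (0.634) and GPC4 (0.703). In the same group CAV444 was lowest for DLL1 (0.711) and for the mast cell gene MS4A2 (0.753), CAV901 lowest for C3 (0.66), and CAV285 highest for EEF1E1 (0.633). In BMPER-low, CAV1114 was lowest for CCN2 (0.645) and for the immediate-early gene EGR2 (0.804), CAV865 lowest for TAMM41 (0.642), and CAV1049 highest for the share of hemoglobin counts (0.851).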

How the results depend on the processing

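Between BMPER-low and BMPER-high, 0 features were called, 0 to 1 leaving out 1 dog, 1 with RLE normalization, filterByExpr, no filter or robust dispersion, 3 with the cardiomyocyte covariate, 578 with DESeq2 and 200 with BMPER as a number over 19 dogs; the other planned settings gave 0. Over the 19 dogs, the 200 became 0 with the span-to-exon ratio, with no sex term, in the 10 females and in the 9 males, 1 with BMPER on a linear scale, 81 with limma voom, 806 with the cardiomyocyte covariate, 857 with DESeq2, and 0 to 302 leaving out 1 dog. Within 10y-MMVD-CHF, the 12 became 0 at an FDR of 0.05, with the cardiomyocyte covariate or with the span-to-exon ratio, 23 with TMM-scaled BMPER, 26 with no sex term, 72 with DESeq2, and 0 to 39 leaving out 1 dog. The difference of slopes gave 28 with no sex term and 219 with DESeq2. Against BMPER-low, 10y-MMVD-CHF gave 2 with DESeq2, 1 with only those groups in the fit and 0 to 0 leaving out 1 dog. Against BMPER-high, the 32 became 10 at an FDR of 0.05, 14 with only those groups, 17 with the span-to-exon ratio, 62 with no sex term, 154 with DESeq2 and 154 with the cardiomyocyte covariate, and 2 to 39 leaving out 1 dog. The cause of these moves was not tested.

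Over 76 named genes, 2184 of 2275 alternative values kept direction and side of the threshold, 62 passed it newly and 29 reversed, in 10 genes, none of which was called between BMPER-low and BMPER-high. With the span-to-exon ratio the difference became 0.033 for ACVR2A, -0.33 for NEFH, -0.16 for CYP4F2, 0.24 for FAM13A-AS1 and 0.23 for FAM13A. It was -0.20 for CYP4F2 and 0.000368 for FAM13A-AS1 with no sex term, -0.031 for CYP4F2 and 0.027 for COL4A6 over 19 dogs, 0.22 for GATA1 over 34 dogs, and 0.014 with limma voom and 0.074 with 5 dogs a group for FAM13A-AS1. Leaving out 1 dog gave from -0.83 to 6.81 for MYL2, -0.34 to 0.48 for NPTX1, -0.48 to 1.09 for CYP4F2, -1.91 to 0.27 for GATA1, -0.27 to 2.44 for CXCR1 and -0.18 to 0.11 for FAM13A-AS1. No paired analysis was possible because each dog gave 1 valve and no number is shared between groups. Depth limited genes under about 1 CPM, and 1 female in BMPER-high limited the separation of sex from BMPER.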

Other observations

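The lists not described above gave the following log2 differences, BMPER-low minus BMPER-high, with 0 members called in each. With the span-to-exon ratio as a covariate 8 of the medians below turn sign, to -0.0038 for laminins, integrins and adhesion genes, -0.08 for ADAMTS, MMP and TIMP genes, -0.05 for chondrogenic and osteogenic genes, 0.22 for mesothelial and epithelial genes, 0.17 for growth factor genes, 0.83 for mast cell genes, -0.18 for melanocyte genes and -0.13 for retinoic acid genes. Among 30 laminins, integrins and adhesion genes the median was 0.12, with 2 negative and 6 positive members at an unadjusted p below 0.05. Over all features tested, 7.09% were negative and 4.6% positive at that level. The beta subunit of the hemidesmosome, ITGB4, stood at -0.75 ± 0.24 and the matrix receptor subunits ITGA5 at -0.53 and ITGAV at 0.46. The 35 ADAMTS, MMP and TIMP genes had a median of 0.07, and all 4 at that level were negative, ADAMTS19, MMP11, ADAMTS6 and ADAMTS14. The 18 chondrogenic and osteogenic genes had a median of 0.27, with the cartilage cytokine-like CYTL1 at 1.16 ± 0.34 and the cartilage collagen COL2A1 at 2.25 ± 0.75. Among 14 genes of mitral valve prolapse and heritable valve disease the median was 0.20, and beside ADAMTS19 and FBN1 the ciliary gene DZIP1 stood at 0.36 ± 0.11 and the actin crosslinker FLNA at 0.45 ± 0.14.

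Among 8 mesothelial and epithelial genes the median was -0.04, with the keratins KRT8 at 1.66 ± 0.48 (1.03 to 2.10 leaving out 1 dog) and KRT18 at 2.35 ± 0.72. For 28 cytokine, chemokine and complement genes the median was 0.32, with 19 positive, 4 of them at an unadjusted p below 0.05. It was 0.24 for 18 interferon-stimulated genes and 0.20 for 13 lymphocyte genes. Medians were 0.20 for 14 interstitial cell and fibroblast markers, 0.18 for 11 Schwann cell and nerve genes, 0.32 for 22 cardiomyocyte genes, 0.23 for 12 serotonin and monoamine genes and 0.01 for 19 retinoic acid genes. They were -0.04 for 35 growth factor genes, with amphiregulin AREG at -2.87 ± 0.95, -0.16 for 14 Notch genes, -0.12 for 7 mast cell genes, 0.13 for 7 melanocyte genes and -0.08 for 7 fast skeletal muscle genes. Genes named here were chosen for their unadjusted p after their values were seen.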
